A study of Rattus norvegicus with 18 samples.

Results

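Grin2d and Grik3 are 2 genes of ionotropic glutamate receptors, and their DNA methylation in the rat striatum was described from all CpGs within 50 kb of a CpG close to each gene, at chr1:101834760 for Grin2d and chr5:143566406 for Grik3 (rn6). A CpG was a member when at least one of its cytosines had 10 reads or more in at least 1 striatum. This gave 514 of the 1451601 CpGs of the series, 392 around Grin2d and 122 around Grik3. The positions at the centre of the windows were chosen from the methylation values of these samples, the Grin2d CpG from the comparison of L-DOPA+R with UNT and the Grik3 CpG from the comparison of L-DOPA with UNT. At these 2 CpGs the differences between treatments are therefore given as a description, with no test value, and the counts of CpGs tested between treatments leave the named CpG out.

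Reduced representation bisulfite sequencing (RRBS), which reads the methylation of single cytosines close to CCGG sites after bisulfite conversion, was done on both striata of 9 juvenile male Wistar rats. All rats had received the toxin 6-OHDA, which kills dopaminergic neurons, in the left medial forebrain bundle at postnatal day 21, so that each rat gave a lesioned and a control striatum and no rat was without a lesion. From day 35 to day 49, and once more on day 53, 3 rats received saline intraperitoneally (UNT), 3 received L-DOPA with benserazide (L-DOPA), and 3 received L-DOPA, benserazide and Riluzole dissolved in Tween (L-DOPA+R). The comparisons ask whether the drugs, or the lesion, went along with a change of methylation in the striatum, a tissue of many cell types whose shares were not measured.

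Glutamate opens ionotropic receptors, which are channels built from several subunits. Grin2d encodes GluN2D, a subunit of the NMDA receptor that is known from early development and from interneurons and that gives channels with slow closing. Grik3 encodes GluK3, a subunit of the kainate receptor that is found on both sides of synapses, and Riluzole is known to lower the release of glutamate. DNA methylation in a promoter usually goes along with a silent gene, while methylation within a gene body can go along with expression.

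The depth differed between the treatments, with 30288745 to 49113957 calls per striatum in UNT, 18471279 to 30764504 with L-DOPA and 19383285 to 25846139 with L-DOPA+R. The kept CpGs around Grin2d numbered 241 to 336 per striatum in UNT, 120 to 227 with L-DOPA and 130 to 196 with L-DOPA+R. Around Grik3 they numbered 72 to 93, 52 to 81 and 44 to 80. The median coverage of the kept CpGs of a window lay between 13 and 27 reads in the 18 striata, so that 1 striatum gives the level of most single CpGs only in steps of several percentage points. Most members were read on 1 strand, and both strands were kept for 18.9% of the Grin2d and 22.1% of the Grik3 CpGs.

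The promoters are shown first, since they give the places from which the named CpGs can be located. The coordinates of the methylation files are in rn6, and an rn6 genome was not used here. Each promoter of the RefSeq annotation of GRCr8 (300 bases, 250 before and 50 after the start of the gene) was therefore placed by the spacing of its CG dinucleotides against the positions of the CpGs with reads. The Grin2d promoter lies at chr1:105481187-105481486 of GRCr8 on the minus strand, and the Grik3 promoter at chr5:143052192-143052491 on the plus strand. Both are written 5′ to 3′, and the capitals mark the CGs at which methylation was read in these samples.
Grin2d promoter: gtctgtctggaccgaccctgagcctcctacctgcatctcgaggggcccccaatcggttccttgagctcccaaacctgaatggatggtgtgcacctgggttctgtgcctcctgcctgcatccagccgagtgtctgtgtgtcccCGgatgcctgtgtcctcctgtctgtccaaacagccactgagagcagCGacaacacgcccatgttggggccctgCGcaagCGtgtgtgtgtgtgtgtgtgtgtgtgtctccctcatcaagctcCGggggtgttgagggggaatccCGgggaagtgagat
Grik3 promoter: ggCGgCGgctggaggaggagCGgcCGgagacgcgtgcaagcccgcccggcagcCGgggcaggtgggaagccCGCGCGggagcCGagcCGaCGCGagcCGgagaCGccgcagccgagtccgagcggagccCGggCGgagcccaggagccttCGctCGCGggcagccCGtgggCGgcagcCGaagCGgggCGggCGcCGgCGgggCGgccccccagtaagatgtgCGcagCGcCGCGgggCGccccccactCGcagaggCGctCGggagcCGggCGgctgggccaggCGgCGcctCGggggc

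The Grin2d promoter held 11 CGs, and all 6 CpGs with reads at chr1:101856832-101857131 of rn6 fell on one of them, while the next best place on the chromosome had 4 of 4. The Grik3 promoter was much denser, with 49 CGs, and all 41 CpGs with reads at chr5:143500191-143500490 fell on one, against 7 of 7 at the next best place. The motif CCGG, which reads the same on both strands, holds a CG and is cut by the enzyme of RRBS, occurred 3 times in the Grin2d and 7 times in the Grik3 promoter. It was present in 53.0% of the 27457 RefSeq promoters of the same length. The promoters of Grwd1, Kdelr1 and Syngr4 were searched within the Grin2d window only, where 5 of 5, 5 of 5 and 16 of 17 CpGs with reads fell on a CG. The Kcnj14 promoter, with 3 of 3, had too few CpGs to be placed. The Kdelr1 promoter lay 2264 bases from the Grin2d promoter in both builds, the Syngr4 promoter 26863 bases in both, and the Grwd1 promoter 37823 bases in rn6 and 37826 in GRCr8.

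From these places, the Grin2d promoter began 22072 bases above the named Grin2d CpG. Grin2d runs toward lower coordinates over 40084 bases in GRCr8, so the named CpG lay downstream of its start at less than the length of the gene. The named Grik3 CpG lay 66215 bases above the first base of the Grik3 promoter, in the direction of a gene of 216432 bases, and the Grik3 promoter itself lay outside the window. An annotation of exons in rn6 was not used here, so exonic and intronic positions were not told apart.

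At the named Grin2d CpG, the methylation level was highest in UNT, lower with L-DOPA and lowest with L-DOPA+R. In the 6 UNT striata it lay between 60.7% and 76.8% with a median of 68.7%. In the 6 L-DOPA striata it lay between 47.4% and 66.1% with a median of 61.1%. In the 6 L-DOPA+R striata it lay between 40% and 56.5% with a median of 53.3%, so that every L-DOPA+R striatum was below every UNT striatum, while L-DOPA overlapped with both. With the reads of both striata of a rat added up, the level was 67.5% ± 4.05 in UNT, 59.8% ± 3.49 with L-DOPA and 51.5% ± 3.89 with L-DOPA+R (SD, n = 3 rats each). The rats ranged from 64.4% to 72.1% in UNT, from 55.8% to 62.4% with L-DOPA and from 48.6% to 55.9% with L-DOPA+R.

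This CpG was among the better covered members, with 46 to 157 reads per striatum. For the striatum with the lowest level, the control side of L-DOPA+R replicate 3, 40% had a 95% Wilson interval of 28.1% to 53.2%, and for the highest, the lesioned side of UNT replicate 3, it was 68.2% to 83.6%. All kept reads came from the plus strand. The minus strand had 6 reads in all 18 striata together, none of them methylated and none in a striatum with 10 reads. L-DOPA+R minus UNT was -16.4 percentage points, the difference through which the CpG was chosen. L-DOPA minus UNT was -8.42 points and L-DOPA+R minus L-DOPA was -8.01 points. Each of these shares the striata of 1 treatment with the comparison that chose the CpG. The control striata alone gave -18.7 points for L-DOPA+R against UNT and the lesioned striata alone -15.2 points. Leaving out 1 rat gave -13.9 points without UNT replicate 3 to -18.6 points without L-DOPA+R replicate 1.

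**Figure D1:**
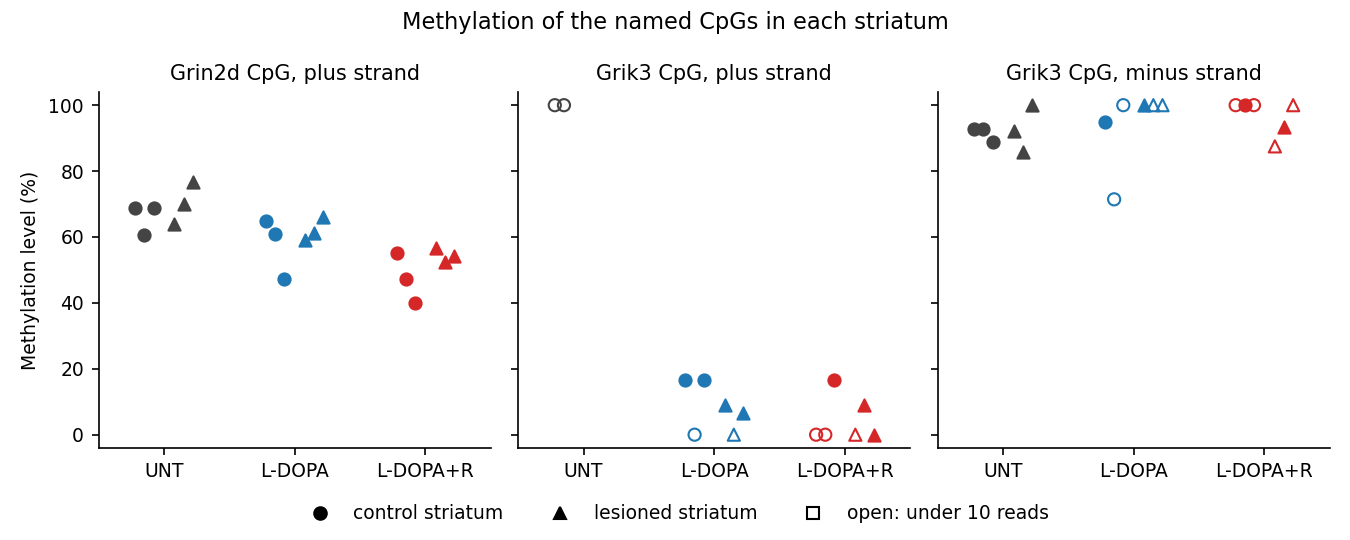
Methylation level (%) of the named CpGs in each of the 18 striata, with the Grin2d plus strand, the Grik3 plus strand and the Grik3 minus strand in 3 panels. Filled symbols have 10 reads or more, open symbols fewer. All L-DOPA+R striata lie below all UNT striata at Grin2d, and at Grik3 the strands differ in L-DOPA and L-DOPA+R.

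Neighbours were sought among the CpGs kept in at least 1 striatum of every treatment, and none of these lay close to the named Grin2d CpG. The nearest were 12315 bases below it and 1638 bases above it. The 3 nearest CpGs above, kept in 3 UNT striata, had 86.5%, 94.0% and 88.2% methylation in UNT. Of the 3 nearest below, 2 were kept in all 6 UNT striata and had 41.1% and 29.6%, and the third had 7.27%. The named CpG could thus not be compared over all treatments with a neighbour on the same DNA fragment.

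Apart from the named CpG, no CpG of the Grin2d window passed q < 0.01 between treatments (logistic model with overdispersion, Benjamini-Hochberg adjustment over all tested CpGs of the series, 654563 in L-DOPA against UNT). In L-DOPA against UNT, 0 of the 159 other tested CpGs passed, while 0.351% of all tested CpGs of the series did, and 16 had an unadjusted p under 0.05 (11 lower, 5 higher), or 10.1% beside 7.37% in the series. In L-DOPA+R against UNT, 0 of the 149 others passed, where 0.445% passed in the series. There, 14 of them had an unadjusted p under 0.05, 11 of these lower in L-DOPA+R, which is 9.40% beside 9.52% in the series. In L-DOPA+R against L-DOPA, 0 of the 121 others passed, against 0.0477% in the series, and all 7 with an unadjusted p under 0.05, or 5.79% beside 7.09%, were lower in L-DOPA+R. The share of lower CpGs among those with an unadjusted p under 0.05 was not counted in the series.

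Of the other CpGs, the one with the lowest q in L-DOPA+R against UNT, chosen for this after the values were seen, was 12495 bases above the named CpG, at chr1:101847255. It had 33.3% to 53.1% in the UNT striata with a median of 48.2%, 25% to 45.2% with L-DOPA with a median of 30.4%, and 18.9% to 40% with L-DOPA+R with a median of 20.3%. Over rats the level was 44.3% ± 4.11 in UNT, 32.9% ± 2.62 with L-DOPA and 24.0% ± 5.14 with L-DOPA+R (SD, n = 3). L-DOPA+R minus UNT was -20.6 points with q = 0.0179, above the threshold. It passed with the rat as the unit (q = 0.000439) and without UNT replicate 2 (q = 0.00972) or 3 (q = 0.00722), but not with the F test (q = 0.589). It also did not pass without UNT replicate 1 (q = 0.146) or L-DOPA+R replicate 1 (q = 0.216), 2 (q = 0.271) or 3 (q = 0.0116). The control (q = 0.245) or lesioned (q = 0.0778) striata alone did not pass either. With the rat as the unit, the chi-square p (1.21e-06) equalled that without the overdispersion correction. Its neighbour at chr1:101847211 had 35.7% in UNT, 29.8% with L-DOPA and 23.3% with L-DOPA+R.

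Between the Grwd1 and the Grin2d promoter, the stretch that holds most of Grin2d, CpGs with intermediate and high levels were more often lower than higher in the drug-treated rats. Without the named CpG, 30 of the 37 tested CpGs with more than 20% methylation in UNT were lower in L-DOPA+R than in UNT, with a median difference of -5.25 points. In L-DOPA against UNT, 30 of 41 were lower, with a median of -3.05 points. On the far side of the Grwd1 promoter, 23 of 34 were lower in L-DOPA+R with a median of -1.34 points, and 14 of 26 in L-DOPA with a median of -0.63 points. Beyond the Grin2d promoter, all 3 were lower in L-DOPA+R, while 1 of 6 was lower and 5 were higher in L-DOPA. Over the whole window without the named CpG the share lower in L-DOPA+R was 75.7% of 74 CpGs, beside 62.7% of such CpGs in the series, and in L-DOPA 61.6% of 73 beside 56.2%. The median difference of such CpGs in the series was -1.48 points in L-DOPA+R and -0.62 points in L-DOPA, near the medians found on the far side of the Grwd1 promoter. Over CpGs of any level between the Grwd1 and the Grin2d promoter, with the named CpG, 39 of 58 were lower in L-DOPA+R than in UNT (median -2.23 points). In L-DOPA against UNT these were 49 of 75 (median -1.03 points). In L-DOPA+R against L-DOPA, 21 of 45 were lower and 20 higher, with a median of 0. The stretches were not tested against each other. A CpG taken for a high value in UNT is more often lower in any other group, and both comparisons with UNT share its striata.

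The 4 placed promoters of the Grin2d window were nearly unmethylated in every treatment. At the Grin2d promoter the level was 1.14% ± 0.242 in UNT, 1.66% ± 1.88 with L-DOPA and 2.47% ± 2.15 with L-DOPA+R (SD, n = 3 rats), with 6, 6 and 3 of its CpGs kept. The Grwd1, Kdelr1 and Syngr4 promoters had means between 0.523% and 3.19%. Of the 122 CpGs of the window kept in 4 or more striata of every treatment, 49.2% had less than 20% and 21.3% more than 80% methylation in UNT, while it was 42.1% and 36.1% in the series. The mean over the 65 CpGs kept in all 18 striata was 18.7% ± 0.719 in UNT, 17.6% ± 0.229 with L-DOPA and 17.5% ± 0.957 with L-DOPA+R (SD, n = 3 rats).

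At the named Grik3 CpG, the 2 strands gave different results, and the merged value followed the strand that had enough reads. On the minus strand the methylation was high in every treatment, with 86 of 93 reads methylated in UNT (92.5%), 56 of 59 in L-DOPA (94.9%) and 54 of 56 in L-DOPA+R (96.4%). On the plus strand UNT had only 3 reads in 2 striata, all methylated, which is too few for a level. L-DOPA had 7 of 66 plus strand reads methylated (10.6%, 95% Wilson interval 5.23% to 20.3%) and L-DOPA+R 3 of 57 (5.26%, 1.81% to 14.4%). No UNT striatum had 10 plus strand reads, while 4 L-DOPA and 3 L-DOPA+R striata did.

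With the strands merged as in the main analysis, UNT was between 85.7% and 100% with a median of 92.6%, all from minus strand reads. The 4 L-DOPA striata were at 57.9%, 54.5%, 16.7% and 6.67%, the first 2 with both strands kept and the others with the plus strand only. The 4 L-DOPA+R striata were at 100%, 57.7%, 16.7% and 0%, of which the first had the minus strand only, the second both strands and the last 2 the plus strand only. The level was 92.2% ± 2.75 over 3 UNT rats, 33.9% ± 32.2 over 2 L-DOPA rats and 40% ± 46 over 2 L-DOPA+R rats (SD). L-DOPA minus UNT was -49.9 points, the difference through which the CpG was chosen, and it was -81.4 points without L-DOPA replicate 1. L-DOPA+R minus UNT, which shares the UNT striata, was -46.2 points. It was -85.1 points without L-DOPA+R replicate 2, whose control striatum had the minus strand only, and -20.0 points without L-DOPA+R replicate 3. On the minus strand alone, without a minimum of reads, L-DOPA was 2.44 points and L-DOPA+R 3.96 points above UNT.

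The same was seen in mirror image 50 bases below. The reads of the series were single reads of 50 bases, and the plus strand cytosine of the named CpG lies 50 bases past a plus strand cytosine with 76.4% methylation in UNT, 86.0% with L-DOPA and 85.2% with L-DOPA+R. The minus strand cytosine of that other CpG in turn lies 50 bases past the minus strand cytosine of the named CpG. It had 33 reads with 84.8% methylation in UNT, where no striatum reached 10 reads, but 76 reads with 21.1% with L-DOPA and 65 reads with 15.4% with L-DOPA+R. The CpGs between them, 18 and 10 bases below the named CpG, had 80% to 100% on both strands in every treatment. Among these 8 cytosines, the low levels were therefore found only at the 2 that are 50 bases past another one, in the treatments that had more reads there. A read of 50 bases that starts at the earlier cytosine would end before these 2, and the calls do not give the lengths of the reads. Whether this distance took part in the difference was not tested.

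**Figure D2:**
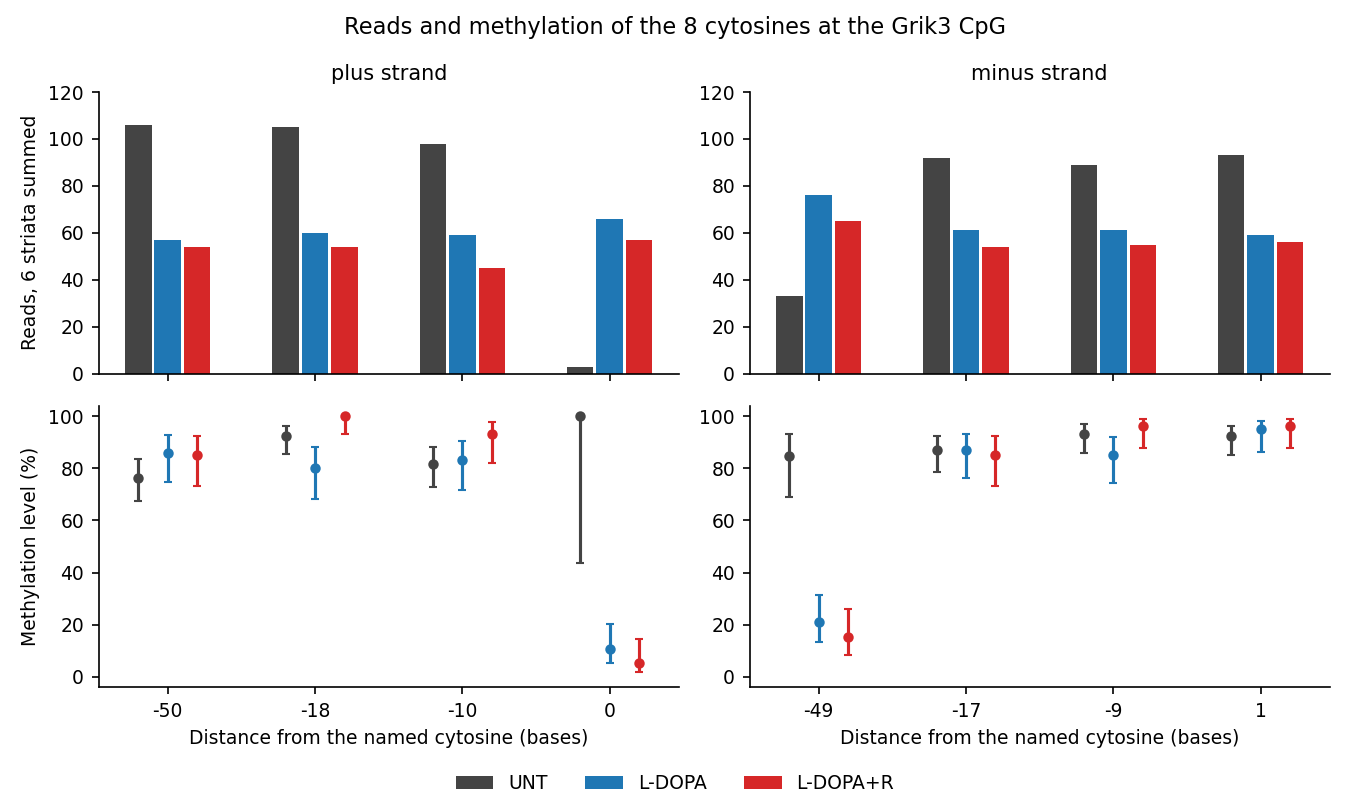
Reads summed over 6 striata (bars, upper panels) and methylation level (%, points with 95% Wilson intervals, lower panels) of the 8 cytosines at the named Grik3 CpG, by strand and distance in bases. At 0 on the plus strand and -49 on the minus strand, L-DOPA and L-DOPA+R have more reads and lower levels than UNT, while the 6 other cytosines are at 76.4% or more.

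Such cytosines, 50 bases past another of the same strand, numbered 4 in the Grik3 and 16 in the Grin2d window. None of the 4 in the Grik3 window was kept in a UNT striatum, and they had 36 reads in UNT, 291 with L-DOPA and 260 with L-DOPA+R. A level was not low at each of them, since the one 30571 bases above the named CpG had 100% with L-DOPA and 92.3% with L-DOPA+R. The one 40337 bases above had 23.8% and 28.3%, without reads on the opposite strand. Of the 16 in the Grin2d window, 5 were kept in no UNT striatum, and their levels in L-DOPA and L-DOPA+R were near those of the opposite strand. The cytosine 14035 bases above the named Grin2d CpG, for example, had no read in UNT, 95.4% with L-DOPA and 97.4% with L-DOPA+R, and its opposite strand 96.5%, 94.4% and 90.3%. The named Grin2d cytosine itself does not lie 46 to 50 bases past another one.

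Of the other CpGs of the Grik3 window, the one with the lowest q between L-DOPA+R and UNT, again picked after the values were seen, was 23505 bases below the named CpG at chr5:143542901. This CpG had 55.6% to 71.4% in the 6 UNT striata with a median of 61.1%, 39.1% to 62.7% with L-DOPA with a median of 51.8%, and 16.0% to 52.3% with L-DOPA+R with a median of 39.1%. All L-DOPA+R striata were below all UNT striata, and L-DOPA overlapped with both. The lowest value, of the lesioned striatum of L-DOPA+R replicate 1, came from 25 minus strand reads alone, while its plus strand had 66.7% from 9 reads, below the minimum. Over rats the level was 62.3% ± 6.20 in UNT, 50.4% ± 6.25 with L-DOPA and 39.2% ± 9.07 with L-DOPA+R (SD, n = 3). L-DOPA+R minus UNT was -22.8 points (q = 0.00225) and L-DOPA minus UNT -11.4 points (q = 0.420).

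Both strands of this CpG were lower in L-DOPA+R than in UNT. The plus strand had 75.7% in UNT, 45.8% with L-DOPA and 39.0% with L-DOPA+R, and the minus strand 57.8%, 54.9% and 41.6%. The CpG 23562 bases below the named CpG, read on the plus strand only, had 59.1%, 45.0% and 37.8% without a minimum of reads, and the one 23486 bases below had 68.9%, 59.8% and 53.2%. Their differences of -23.6 and -20.4 points in the test of L-DOPA+R against UNT did not pass (q = 0.395 and 0.329). None of these 3 CpGs lies 46 to 50 bases past another cytosine. The call at 23505 bases was lost with the rat as the unit (q = 0.0366), with the F test (q = 0.372), and in the control (q = 0.0234) or lesioned (q = 0.446) striata alone. It was also lost when L-DOPA+R replicate 1 (q = 0.0123) or 2 (q = 0.0167), or UNT replicate 1 (q = 0.0617) or 3 (q = 0.0138), was left out, with differences of -18.3 to -26.0 points.

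**Figure D3:**
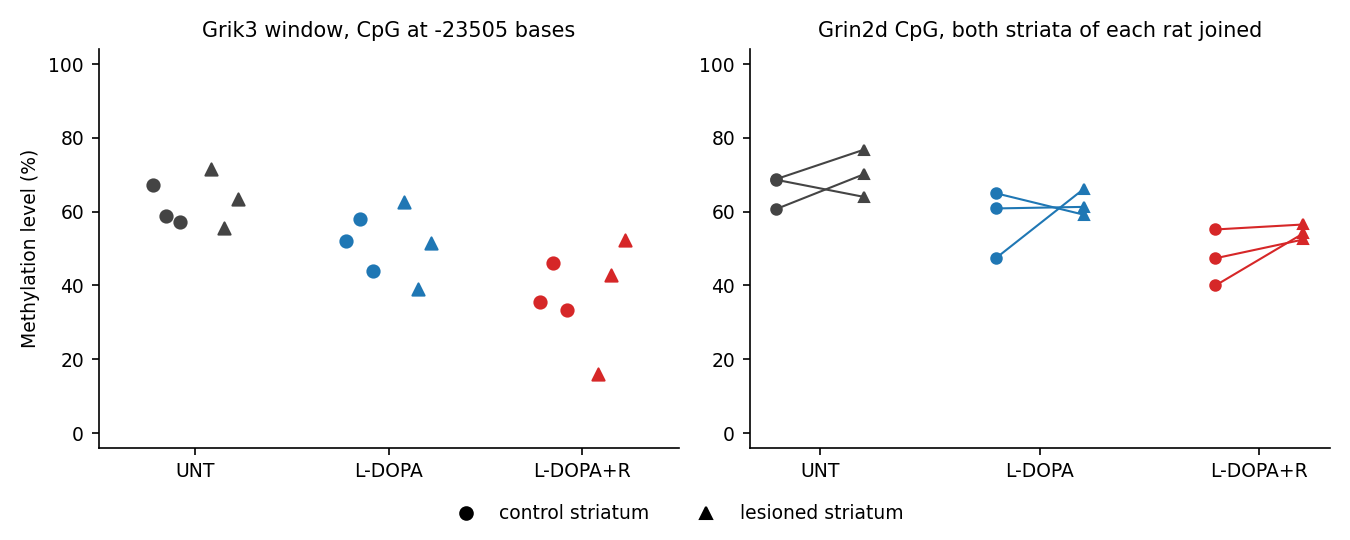
Left, methylation level (%) in each striatum of the CpG 23505 bases below the named Grik3 CpG, strands merged. Right, the named Grin2d CpG in the control (circle) and lesioned (triangle) striatum of each rat, joined by a line. On the left all L-DOPA+R striata lie below all UNT striata, and on the right the lesioned side is higher in 7 of 9 rats.

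In the Grik3 window as a whole, 0 of the 59 tested CpGs besides the named one passed q < 0.01 in L-DOPA against UNT, where 0.351% passed in the series, and 3 had an unadjusted p under 0.05, all lower, or 5.08% beside 7.37% in the series. In L-DOPA+R against UNT, 1 of the 48 others passed, the CpG at 23505 bases, beside 0.445% in the series, and 8 had an unadjusted p under 0.05, all lower, or 16.7% beside 9.52% in the series. These 8 hold the partner of the named CpG and the 3 CpGs just described, so that 3 of them come from 1 place. In L-DOPA+R against L-DOPA, 0 of the 45 others passed, beside 0.0477% in the series, and 4 had an unadjusted p under 0.05, all lower in L-DOPA+R, or 8.89% beside 7.09%. For CpGs with an unadjusted p under 0.05, the direction was not counted in the series. Of CpGs with more than 20% in UNT, 72.3% of 47 were lower in L-DOPA+R and 70.7% of 58 in L-DOPA without the named CpG, beside 62.7% and 56.2% in the series.

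The Grik3 window was much more methylated than the Grin2d window. Of the 45 CpGs kept in 4 or more striata of every treatment, 55.6% had more than 80% and 2.22% less than 20% in UNT. The mean over the 23 CpGs kept in all 18 striata was 74.5% ± 0.880 in UNT, 72.5% ± 1.64 with L-DOPA and 69.9% ± 2.73 with L-DOPA+R (SD, n = 3 rats). The striata overlapped, with 72.4% to 77% in UNT, 70.6% to 76.1% with L-DOPA and 66.3% to 74.2% with L-DOPA+R. The Grik3 promoter, outside the window, had 0.964% ± 0.252, 1.43% ± 1.15 and 1.05% ± 0.605.

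**Figure D4:**
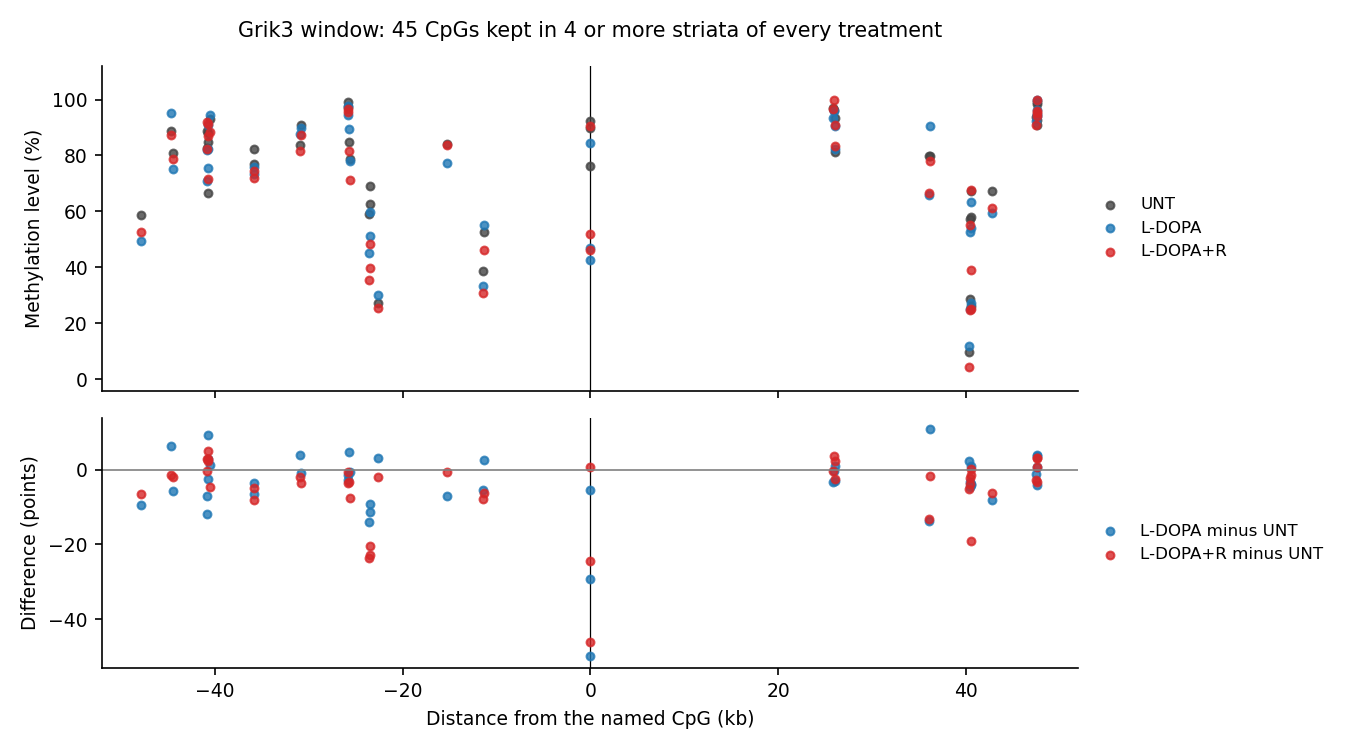
Methylation level (%, upper panel) and difference from UNT (percentage points, lower panel) of 45 CpGs of the Grik3 window against the distance from the named CpG in kb. The lowest differences are at the named CpG and its partner at 0 and at the CpGs 23505 bases below.

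Lesioned and control striata were compared next, since the lesion was on 1 side, with the striata paired by replicate number. At the named Grin2d CpG the lesioned striatum was higher in 7 of 9 rats, by 5.19 ± 8.26 points on average (SD), with 57.1% on the control and 62.3% on the lesioned side. The 2 sides were not told apart over the rats (two-sided exact sign-flip permutation test, p = 0.0977, adjusted 0.172 over both CpGs, smallest possible 0.00391). All 3 L-DOPA+R rats had a higher lesioned side, by 1.35, 5.09 and 14.1 points, while UNT and L-DOPA each had a rat with a lower one. At the named Grik3 CpG the lesioned striatum was lower in 6 of 7 rats with both sides kept, with a mean difference of -9.84 ± 16.7 points (exact sign-flip permutation test, p = 0.172). In L-DOPA+R replicate 2 a control side with the minus strand only was set against a lesioned side with both strands, a difference of -42.3 points, and without this rat the mean was -4.43 points (exact permutation, p = 0.344). On the minus strand without a minimum of reads, the 9 rats gave a mean of 1.98 points in the other direction (exact permutation, p = 0.719).

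In the windows, no CpG passed q < 0.01 between the sides in UNT, L-DOPA or L-DOPA+R, with the logistic model, its F test or the rat as a block. The series had 0.00193%, 0.00101% and 0.00176% of such CpGs. Of the Grin2d CpGs, 9 of 179, 3 of 83 and 6 of 82 had an unadjusted p under 0.05, and of the Grik3 CpGs 5 of 67, 4 of 38 and 1 of 26, beside 6.45%, 5.4% and 6.29% in the series. The difference of the sides between treatments was tested as an interaction. It passed at no CpG of either window, beside 0%, 0% and 0.000658% in the series, with 5 of 74, 6 of 77 and 2 of 67 Grin2d CpGs and 2 of 37, 3 of 26 and 0 of 23 Grik3 CpGs at an unadjusted p under 0.05, beside 6.05%, 6.44% and 6.12% in the series.

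The other glutamate receptor genes could be followed only at single places. Of the 26 genes of ionotropic and metabotropic receptors listed, 14 were matched in the promoter table used, and 4 of these could be placed by the spacing of their CpGs, Grin2d, Grik3, Grik1 and Grm7. The Grik1 promoter, of another kainate receptor subunit, had 0.966% ± 0.391 in UNT, 2.12% ± 1.42 with L-DOPA and 1.66% ± 0.805 with L-DOPA+R. The Grm7 promoter, of a presynaptic metabotropic receptor, had 1.76% ± 0.334, 0.965% ± 0.296 and 1.41% ± 0.273 (SD, n = 3 rats). Of 7 CpGs near other receptor genes that had been chosen from these samples as different, 2 had low levels with L-DOPA and L-DOPA+R on the plus strand only. Unlike at Grik3, this strand was covered in UNT as well, with more than 100 reads over the 6 striata at each. The plus strand cytosine close to Grid1, a delta receptor subunit, at chr16:11450077, also 50 bases past another, had 93.9% in UNT, 50.6% with L-DOPA and 57.0% with L-DOPA+R, and its minus strand 92.5%, 89.7% and 96.9%. The one close to Grm4, a metabotropic receptor, at chr20:6977959, again 50 bases past another, had 94.3%, 34.8% and 38.6%, and its minus strand, which lies 46 to 50 bases past another cytosine as well, had 95.7%, 96.3% and 92.2%. At another CpG, close to Grik4, a kainate receptor subunit, at chr8:46947939, the strands differed in every treatment, with 6.04%, 2.92% and 9.84% on the plus strand, which lies 46 to 50 bases past another cytosine, and 83.7%, 78.0% and 89.4% on the minus strand. The other 4, close to Grik1, Grm4 and Grm8, do not lie 46 to 50 bases past another cytosine, and only the one close to Grm8 was read on both strands.

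Just inside and just outside the 50 kb limits the levels were as follows, over all striata with reads kept. At the lower limit of the Grin2d window the last CpGs inside had 83.9% and 90.6% and the first outside 93.6% and 86.6%. At its upper limit they had 0.182% and 5.52% inside and 93.5% and 86.1% outside, the latter at 59406 and 59560 bases. For Grik3 they had 54.9% and 77% inside and 75.6% and 90.5% outside at the lower limit, and 92.8% and 94.8% inside and 72.6% and 92.4% outside at the upper limit.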

How the data were processed

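The data are RRBS calls of 18 striata, taken from both sides of 9 rats, 3 per treatment. Reads of 50 bases were trimmed by the authors with Trim Galore 0.4.0 and mapped to rn6 with Bismark (version 014.3 per the labels). The coverage is a read count per cytosine and strand, deposited by the authors without a minimum. The shares of reads with C and with T were deposited by the authors as percent.

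Methylated reads were rebuilt from coverage and percent. In each striatum, cytosines below 10 reads were dropped and what remained of the 2 strands was merged. A logistic model with overdispersion (floor 1) and a chi-square test was fitted to all CpGs kept in at least 4 of 6 striata of each treatment (sides: all 6), and p was adjusted over all of them with the Benjamini-Hochberg method. CpGs with q < 0.01 passed. Each striatum was a sample, although 2 of them share a rat, so the rat as the unit is an alternative. Named CpGs were compared between the sides with an exact sign-flip test over rats. Levels are given over rats, with the reads of both sides added up, as mean ± SD. Wilson intervals (95%) cover counting error only, as no molecular identifiers were used.

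Both striata of a replicate number were taken to come from 1 rat. The labels give the side and the replicate number but name no rat. The levels over rats, the rat as the unit and the sign-flip tests rest on this pairing. The deviations of paired striata from the group means correlated only weakly (mean r = 0.0645, 0.0336 to 0.112 over 9 rats). Between treatments the numbers are different rats. The members and lists were chosen with earlier results of these data known. The named sites were the 2 CpGs of the rule, every other CpG called in a window, the 3 nearest CpGs on each side that were kept in every treatment, and those at the limits of the windows. In each window the CpG with the lowest q of L-DOPA+R against UNT besides the named one is also described, with its neighbours. This choice, the placing of promoters and the cytosines 50 bases past another were chosen after the values were seen. A promoter was placed where at least 5 CpGs with 5 reads or more fitted, on a CG in all cases for the receptor genes, which were searched over the whole chromosome, and better than at the next place. The neighbours of Grin2d were searched within its window only. Python 3.11.15, numpy 2.4.6, pandas 2.3.3, scipy 1.17.1 and matplotlib 3.10.9 were used, and the fit was tested on simulated data. The simulated striata of a group differed by counting error only, so this does not show how the fit handles a spread between striata.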

Additional observations from a re-analysis of the deposited data

Results flagged for a closer look

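In 22 groups of 6 striata or of rats looked at, 3 held a value far from the others, where chance gives about 1 in 20. At the named Grin2d CpG the control striatum of L-DOPA replicate 3 had 47.4%, while the other 5 L-DOPA striata had 59.2% to 66.1%. On the minus strand of the named Grik3 CpG the control striatum of L-DOPA replicate 2 had 71.4%, from 7 reads, while the others had 95.0% to 100%. The mean over the Grin2d window in the control striatum of L-DOPA+R replicate 3 was 20.04%, while the other 5 had 16.3% to 17.4%. That same striatum had the lowest level of all at the named Grin2d CpG.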

How the results depend on the processing

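Counts of passing CpGs in the windows, without the named CpGs, were 0 or 1 between treatments, and those of the sides and of the interaction were 0 under every alternative that could be run, also with the rat as replicate block. Around Grik3 for L-DOPA against UNT, the count of 0 became 1 without the overdispersion correction and without L-DOPA replicate 3 (range without 1 rat 0 to 1), through the partner 50 bases below the named CpG (q = 0.000117 without that rat). Around Grin2d for L-DOPA+R against UNT, the count of 0 became 1 without the correction, with the rat as the unit and without UNT replicate 2 or 3 (0 to 1 without 1 rat), each time through the CpG 12495 bases above the named one. Around Grik3 for L-DOPA+R against UNT, the count of 1 became 0 with 20 reads, the F test, the rat as the unit, and either side alone, and was 0 to 1 without 1 rat. Between the drugs it was 0 throughout.

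The difference at the named Grik3 CpG of L-DOPA from UNT was 4.30 points on the minus strand and without cytosines 46 to 50 bases past another, 2.44 on the minus strand without a minimum, -89.4 on the plus strand without a minimum, with only 3 UNT reads, and -5.00 with 20 reads, from the minus strand of 1 UNT and 1 L-DOPA striatum, and leaving out 1 rat gave -81.4 to -35.8. For L-DOPA+R from UNT these were 4.08, 3.96 and -94.7, and -85.1 to -20.0 without 1 rat. Between the drugs, the plus strand gave -4.61, or -5.34 without a minimum, and the minus strand and the removal of these cytosines -0.222, and leaving out 1 rat gave -35.1 to 35.2. At the named Grin2d CpG the differences kept their direction, and the minus strand gave 0 from 6 unmethylated reads. The lesioned minus control difference was 3.49 to 6.57 points at Grin2d without 1 rat, with p = 0.0391 (exact permutation test) without L-DOPA replicate 1. At Grik3 it was -13.3 to -4.43 without 1 rat, with p = 0.0312 (exact) without UNT replicate 3, and 0.350 on the minus strand or 1.98 without a minimum. The single strands without a minimum and the cytosines 50 bases past another were chosen as alternatives after seeing the data. The cause of these shifts was not tested. The depth of L-DOPA and L-DOPA+R, lower than that of UNT, limits which CpGs could be tested.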
